A study of Homo sapiens with 5 samples.

Results

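The genes described here control how glucose enters glycolysis. They are 10 of the 20030 symbols in each library table, picked by name for their place in the pathway: the glucose transporters SLC2A1 and SLC2A3, the hexokinases HK1 and HK2, the phosphofructokinases PFKL, PFKM and PFKP, and the bifunctional enzymes PFKFB2, PFKFB3 and PFKFB4. These genes, and the gene lists set beside them below, were chosen with earlier results of these data known. Counts and medians set against all tested genes therefore describe the chosen genes and do not test them as a set. All 10 were found in every table and all 10 passed the filter on low values. RNA sequencing measured their transcripts in HCT116, an established line of human colorectal cancer cells. There was 1 library from cells given an siRNA against SP1, 1 from cells given an siRNA against SP3, 1 from cells given both (the double knockdown) and 2 from control cells (control 1 and control 2). An siRNA is a short RNA duplex that lowers the transcript it matches, and neither its sequence nor its dose or duration is stated in the labels used here, nor what the control cells were given.

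Glucose crosses the plasma membrane through carriers of the SLC2A family, is trapped in the cell as glucose phosphate by hexokinase, and is committed to glycolysis by phosphofructokinase, the main control point of the pathway. The PFKFB enzymes make and break the sugar bisphosphate that switches phosphofructokinase on. Many tumours hold high levels of SLC2A1 and HK2, and several of these genes are known targets of the hypoxia factor HIF1. The related zinc finger proteins SP1 and SP3 recognise GC-rich sites in promoters.

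The libraries held 14678068 to 15970519 counted reads, as worked out from the steps in the deposited values. Each siRNA's own target was reduced where the labels name it. The SP1 transcript was at 15.8 FPKM (fragments per kilobase of transcript, scaled to library size) with the SP1 siRNA, 27.5 with the SP3 siRNA and 16.1 in the double knockdown, against 36.6 and 37.2 FPKM in the controls. SP3 stood at 14.3, 5.42 and 6.67 FPKM in the same order, against 13.3 and 13 FPKM in the controls. SP1 was thus lower with the SP3 siRNA as well, by -0.41 ± 0.07 on the log2 scale (limma adjusted p = 0.000165). With the SP1 siRNA the SP3 difference of 0.12 ± 0.09 was not called (adjusted p = 0.259). The epithelial markers EPCAM, CDH1, KRT8, KRT18 and KRT19 were well above 1 FPKM in every library. Of the other epithelial markers CDX1 was at 0 in all libraries, KRT20, VIL1, CEACAM5, CEACAM6 and LGALS4 stayed under 1 FPKM, and CDX2 was at 0.557, 0.646 and 0.583 FPKM after knockdown, against 1.15 and 1.13 FPKM. The 12 epithelial markers summed to 3554, 4210 and 4111 FPKM, against 4011 and 4016 FPKM. Most leukocyte markers were low in the controls and lower after each knockdown: of 7 tested limma called 5, 6 and 5 lower with the SP1 siRNA, the SP3 siRNA and both, and 1 higher in each. The one called higher was ITGAM with the SP1 siRNA, at 1.37 FPKM against 0.632 and 0.572 FPKM in the controls, and CD68 with the SP3 siRNA and with both. Of all tested genes 28.8%, 32.1% and 31.1% were called lower and 36.5%, 29.6% and 31.9% higher. The lysosomal gene CD68, which many cell types express, was left out of the leukocyte sum after its values were seen. The other 9 leukocyte markers then summed to 2.67, 0.994 and 1.86 FPKM with the SP1 siRNA, the SP3 siRNA and both, against 20.2 and 21.4 FPKM in the controls (58.9, 95.1 and 77.1, against 82.1 and 80 FPKM, with CD68). LYZ alone made up most of that control sum, at 11.1 and 12.2 FPKM, and stood at 0.258, 0.124 and 0.0449 FPKM after the knockdowns. TYROBP and CD3E were at 0 in every knockdown library, and FCER1G was at 0.661, 0.424 and 0.807 FPKM, against 1.73 and 2.87 FPKM. Markers of fibroblasts summed to 6.23, 8.34 and 4.41 FPKM, against 8.91 and 9.03 FPKM, of neurons to 16.5, 32.7 and 28 FPKM, against 31 and 29.6 FPKM, and of erythroid cells to 0, 0.62 and 0.221 FPKM, against 1.94 and 2.11 FPKM. Those of endothelial cells summed to 0.248 to 0.439 FPKM over all libraries. The part of other cell types in the results that follow was not tested.

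The comparisons with the controls asked how these genes respond when SP1, SP3 or both are lowered. With the SP1 siRNA 6 of the 10 genes fell and 3 rose, with the SP3 siRNA 5 fell and 4 rose, and in the double knockdown 5 fell and 3 rose (limma on log2(FPKM + 1), Benjamini-Hochberg adjusted p under 0.05 over 11728 genes). The same rule called 65.4% of all tested genes with the SP1 siRNA, 61.6% with the SP3 siRNA and 63% in the double knockdown, so 9, 9 and 8 called genes of 10 are not far from what any gene shows here. The median difference of the 10 genes was -0.45, -0.24 and -0.18 on the log2 scale, against 0.06, -0.02 and 0.01 over all tested genes. Every one of the 10 lay outside the range of both controls in each knockdown library, as did 93.7%, 94% and 93.8% of the 7127 genes whose mean reached 5 FPKM. A difference of at least 2-fold in FPKM from each control is rarer and needs no estimate of spread. It was reached by 3 of the 10 genes with the SP1 siRNA, 1 with the SP3 siRNA and 2 in the double knockdown, against 10.6%, 9.32% and 9.68% of the 7127 genes. Those genes were SLC2A3, PFKFB4 and PFKL with the SP1 siRNA, PFKFB4 with the SP3 siRNA, and SLC2A3 and PFKFB4 in the double knockdown.

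The 2 controls carry the only measure of spread, and they differed by at most 0.14 on the log2 scale over the 10 genes. Each knockdown has 1 library and is assumed to vary like the controls, and the labels do not say that the controls were separate cultures, so the p-values may describe technical spread alone. An additive model, with a term for each siRNA, treats any gap between the double knockdown and the summed terms as spread. This model sets the step from 1 siRNA to both equal to the term of the added siRNA. With it limma called only SLC2A3 with the SP1 siRNA (-3.12, adjusted p = 0.0352), no member with the SP3 siRNA and only SLC2A3 in the double knockdown (-3.43, adjusted p = 0.0218). There the other members had adjusted p of 0.0521 to 0.842, and 4 of 10 members had an unadjusted p under 0.05 in each of the 3 comparisons. Of all 11728 tested genes this model called 900, 1805 and 1973, with 4165, 4398 and 4664 at an unadjusted p under 0.05. With no filter on low values limma called 7, 4 and 4 members, against 4180, 2106 and 3157 of 17125 genes. The calls lost were SLC2A1 in all 3 comparisons and PFKFB3 with either siRNA. Also lost were SLC2A3, PFKM and PFKP with the SP3 siRNA, and PFKM, PFKP and PFKFB2 in the double knockdown. Strand handling is not stated, so reads from a gene and from an overlapping or antisense gene cannot be told apart. In bulk RNA a change in the number of cells of a type and a change of RNA per cell cannot be told apart.

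**Figure D1:**
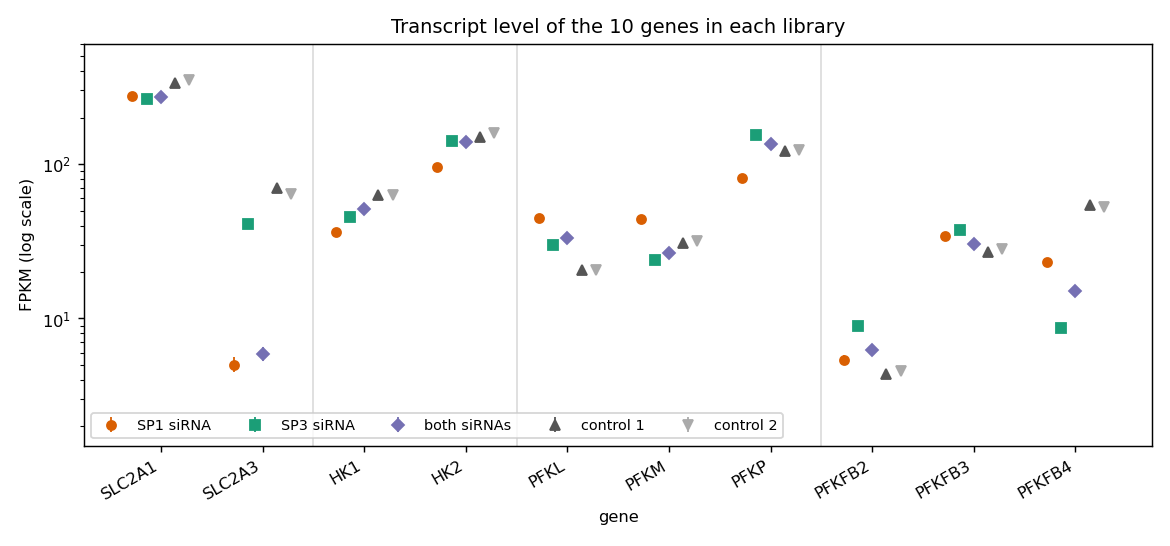
Level of each gene in each library, in FPKM on a log scale, with 95% Poisson intervals that cover counting error only (most are smaller than the symbols). SLC2A3 drops to 5.03 FPKM with the SP1 siRNA and 5.92 FPKM with both, and PFKFB4 drops to 8.7 FPKM with the SP3 siRNA.

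The transporters showed the widest contrast. SLC2A3, a carrier with high affinity for glucose that neurons rely on, stood at 5.03 FPKM with the SP1 siRNA, 41.1 FPKM with the SP3 siRNA and 5.92 FPKM in the double knockdown, against 70.5 and 63.9 FPKM in the controls. The SP1 siRNA and double knockdown libraries were thus far below every other library, while the SP3 siRNA library lay between them and the controls. As a share of the control mean of 67.2 ± 4.69 FPKM (SD, n = 2), these levels were 7.48%, 61.3% and 8.81%. The low values rest on at least 304 reads with the SP1 siRNA, a 95% Poisson interval of 4.48 to 5.63 FPKM, and at least 342 reads in the double knockdown, 5.31 to 6.58 FPKM. The log2 difference from the controls was -3.50 ± 0.08 (SE) with the SP1 siRNA, -0.69 ± 0.08 with the SP3 siRNA and -3.30 ± 0.08 in the double knockdown (limma adjusted p = 1.17e-13, 2.56e-06 and 3.1e-13).

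No further change of SLC2A3 passed the threshold when SP3 was lowered on top of SP1. The double knockdown minus the SP1 siRNA library was 0.20 ± 0.09 (adjusted p = 0.0911). Lowering SP1 on top of SP3 took it further down, by -2.61 ± 0.09 (adjusted p = 1.27e-10), a step that lost its call with no filter on low values (adjusted p = 0.144). The additive model does not test this step on its own, since there it is the SP1 term given above (-3.12, adjusted p = 0.0352). Between the double knockdown and the SP3 siRNA library limma called 1 of the 10 genes higher and 3 lower, against 17.9% and 15.1% of all tested genes (33% in all). Set directly against the SP1 siRNA library, the SP3 siRNA library was higher by 2.81 ± 0.09 (adjusted p = 6.08e-12), also called in the additive model (adjusted p = 0.0262). Leukocytes express SLC2A3 as well, and the part of the lower leukocyte markers in its change was not tested. SLC2A14, a near-identical copy of SLC2A3 that can take some of its reads, was at 0.0248, 0.0596 and 0.0259 FPKM after the 3 knockdowns, against 0.109 and 0.0239 FPKM in the controls.

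SLC2A1, the carrier for basal glucose uptake in most cells, was the most abundant of the 10 transcripts in every library. It stood at 276 FPKM with the SP1 siRNA, 263 with the SP3 siRNA and 272 in the double knockdown, against 335 and 351 FPKM in the controls. The knockdown libraries lay close together and below both controls. The fall was -0.31 ± 0.06, -0.38 ± 0.06 and -0.34 ± 0.06 on the log2 scale (limma adjusted p = 0.000171, 2.8e-05 and 9.47e-05). No pair of knockdown libraries differed past the threshold (adjusted p 0.36 to 0.797), and with no filter on low values the 3 falls missed it (adjusted p 0.0618 to 0.0654). Summed, the 2 carriers came to 281, 304 and 278 FPKM, against 406 and 415 FPKM in the controls. SLC2A3 made up 1.79% of that sum with the SP1 siRNA, 13.5% with the SP3 siRNA and 2.13% with both, against 17.4% and 15.4% in the controls.

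**Figure D2:**
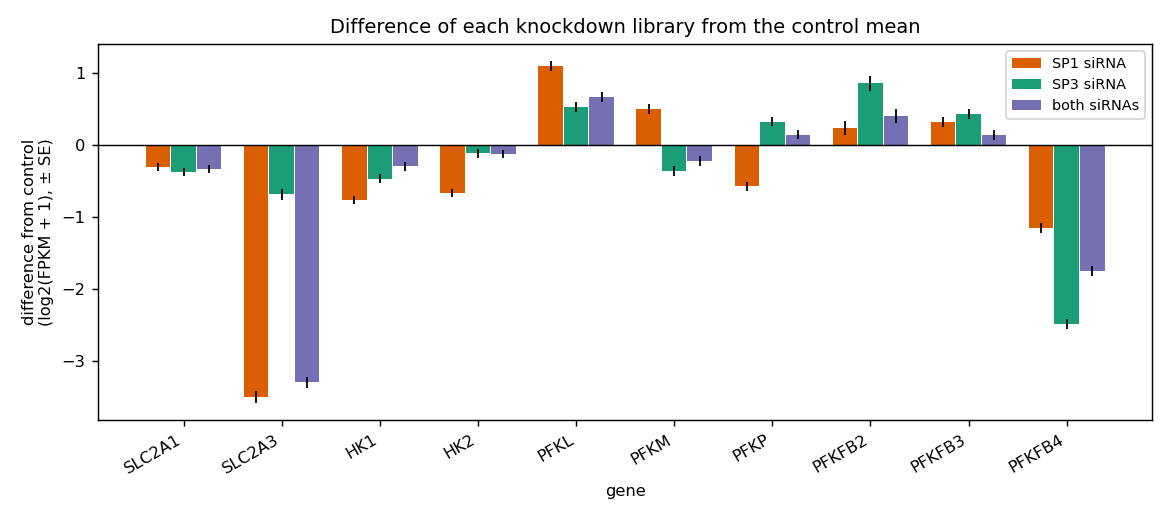
Difference of each knockdown library from the control mean on the log2(FPKM + 1) scale, bars with the limma SE. SLC2A3 is at -3.50 with the SP1 siRNA and -0.69 with the SP3 siRNA, PFKFB4 at -1.16 and -2.49, and PFKM and PFKP lie on opposite sides of 0 with the 2 siRNAs.

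Both hexokinases were lowest with the SP1 siRNA. HK1, the broadly expressed form, stood at 36.6 FPKM with the SP1 siRNA, 45.3 with the SP3 siRNA and 51 in the double knockdown, against 62.7 and 63.4 FPKM in the controls. All 3 knockdown libraries were below both controls, and the double knockdown was the least reduced of them. The differences were -0.77 ± 0.06, -0.47 ± 0.06 and -0.30 ± 0.06 (limma adjusted p = 7.4e-08, 1.5e-05 and 0.000823). HK2, the inducible form bound to mitochondria in many tumours, stood at 96 FPKM with the SP1 siRNA, 141 with the SP3 siRNA and 140 with both, against 149 and 158 FPKM in the controls. Only the SP1 siRNA library stood well apart, at 62.5% of the control mean, a fall of -0.67 ± 0.06 (adjusted p = 1.32e-07). With the SP3 siRNA the difference was -0.12 ± 0.06 and in the double knockdown -0.13 ± 0.06, neither past the threshold (adjusted p = 0.0947 and 0.0687).

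Between the double knockdown and the SP1 siRNA library limma called 3 of the 10 genes higher and 3 lower, against 21% and 26.4% of all tested genes (47.5% in all). The double knockdown held more of both hexokinase transcripts than the SP1 siRNA library, by 0.47 ± 0.07 for HK1 and 0.54 ± 0.07 for HK2 (limma adjusted p = 0.000131 and 1.64e-05). These steps missed the threshold with no filter on low values (adjusted p = 0.084 and 0.0854). In the additive model, where the step is the SP3 term, HK1 turned to -0.07 and HK2 lay at 0.16, neither called (adjusted p = 0.842 and 0.515). HK2 outnumbered HK1 per length in all 5 libraries, 2.62-, 3.12- and 2.75-fold after the SP1, SP3 and double knockdown and 2.38- and 2.49-fold in the controls. The summed level was 133, 186 and 191 FPKM, against 212 and 221 FPKM in the controls.

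The phosphofructokinases changed in make-up. Their summed level was 171 FPKM with the SP1 siRNA, 208 with the SP3 siRNA and 195 in the double knockdown, against 173 and 176 FPKM in the controls. With the SP1 siRNA that is 98% of the control mean, yet each of the genes moved. PFKL, the liver-type subunit, rose to 44.9 FPKM with the SP1 siRNA, 30 with the SP3 siRNA and 33 with both, against 20.7 and 20.5 FPKM in the controls. All 3 knockdown libraries were above both controls, most of all the SP1 siRNA library. The rise was 1.09 ± 0.07, 0.52 ± 0.07 and 0.66 ± 0.07 (limma adjusted p = 4.46e-09, 1.3e-05 and 1.16e-06).

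PFKM, the muscle-type subunit, went opposite ways with the 2 siRNAs. It stood at 44.3 FPKM with the SP1 siRNA, 24 with the SP3 siRNA and 26.5 with both, against 30.9 and 31.6 FPKM in the controls. The SP1 siRNA library was thus above both controls and the other knockdown libraries below them. The differences were 0.49 ± 0.07, -0.37 ± 0.07 and -0.23 ± 0.07 (limma adjusted p = 2.1e-05, 0.000348 and 0.00984). PFKP, the platelet-type subunit and the main one in these cells, did the reverse, at 81.9 FPKM with the SP1 siRNA, 154 with the SP3 siRNA and 135 with both, against 121 and 124 FPKM in the controls. Its differences were -0.58 ± 0.06, 0.32 ± 0.06 and 0.14 ± 0.06 (adjusted p = 5.24e-07, 0.000215 and 0.0494). The last of these missed the threshold under all 6 other settings that gave a p-value, with adjusted p of 0.0519 to 0.728.

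The contrast between the single siRNAs was tested directly. SP3 siRNA minus SP1 siRNA was -0.57 ± 0.08 for PFKL, -0.85 ± 0.08 for PFKM and 0.90 ± 0.07 for PFKP (limma adjusted p = 2.61e-05, 3.64e-07 and 2.8e-08). PFKP alone of these kept its call in the additive model (adjusted p = 0.048), and PFKM narrowly missed it (adjusted p = 0.0522). In that direct comparison 5 of the 10 genes were called higher and 3 lower, against 26.5% and 36.2% of all tested genes (62.7% in all). PFKP held 47.9% of the summed level with the SP1 siRNA, 74% with the SP3 siRNA and 69.5% with both, against 70.2% and 70.4% in the controls. PFKL held 26.2%, 14.4% and 16.9%, against 11.9% and 11.6%. The order of PFKL and PFKM also turned: PFKL was above PFKM with the SP3 siRNA and with both, and below it in both controls. With the SP1 siRNA their counting intervals overlapped, 43.2 to 46.6 FPKM for PFKL and 42.8 to 45.8 FPKM for PFKM.

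**Figure D3:**
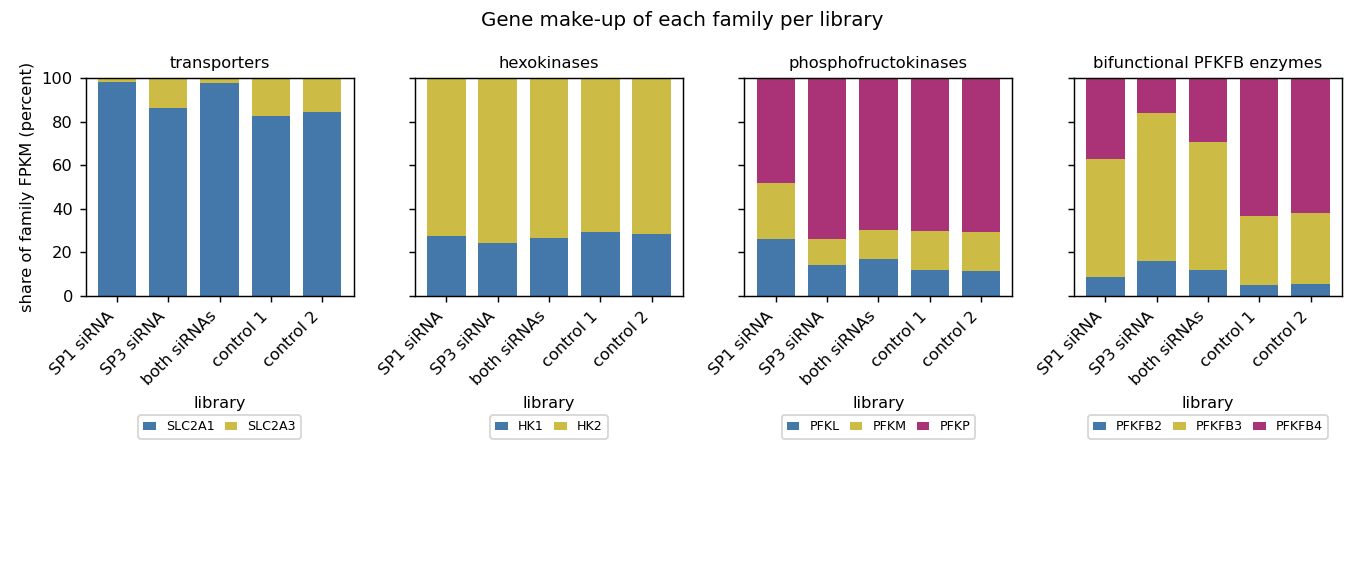
Share of each gene in the summed FPKM of its family, in percent, for each library. PFKP drops to 47.9% of the phosphofructokinases with the SP1 siRNA, and PFKFB4 drops to 15.9% of the PFKFB transcripts with the SP3 siRNA, against 63.3% and 61.7% in the controls.

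Among the PFKFB genes the lead passed to another member. PFKFB4, a hypoxia-inducible form found in many tumours, stood at 23.3 FPKM with the SP1 siRNA, 8.7 with the SP3 siRNA and 15.1 with both, against 54.2 and 52.6 FPKM in the controls. All 3 knockdown libraries were far below both controls, with the double knockdown between the single ones. These levels were 43.7%, 16.3% and 28.3% of the control mean of 53.4 ± 1.14 FPKM (SD, n = 2). The differences were -1.16 ± 0.07, -2.49 ± 0.07 and -1.75 ± 0.07 (limma adjusted p = 3.44e-09, 3.03e-12 and 4.88e-11). In the additive model they were -0.35, -1.68 and -2.02, with adjusted p of 0.57, 0.0543 and 0.0585.

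PFKFB4 was thus less reduced with both siRNAs than with the SP3 siRNA alone, by 0.73 ± 0.08 (limma adjusted p = 1.7e-05), a step not called with no filter on low values (adjusted p = 0.144). The additive model sets this step equal to its SP1 term, -0.35, which it does not call (adjusted p = 0.57). SP3 itself was at 6.67 FPKM in the double knockdown and at 5.42 FPKM with the SP3 siRNA, and the part of this gap in the PFKFB4 difference was not tested. The double knockdown minus the SP1 siRNA library was -0.59 ± 0.08 (adjusted p = 4.79e-05), and -1.68 in the additive model, where it is the SP3 term (adjusted p = 0.0543).

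PFKFB3, whose kinase activity far exceeds its phosphatase activity, stood at 34.3 FPKM with the SP1 siRNA, 37.3 with the SP3 siRNA and 30.3 with both, against 27 and 28 FPKM in the controls. It rose by 0.31 ± 0.07 with the SP1 siRNA and by 0.43 ± 0.07 with the SP3 siRNA (limma adjusted p = 0.0014 and 9.4e-05), while the double knockdown differed by 0.13 ± 0.07 and missed the threshold (adjusted p = 0.109). PFKFB2, the heart-type form, was the least abundant of the 10 in both controls. It stood at 5.41 FPKM with the SP1 siRNA, 8.91 with the SP3 siRNA and 6.24 with both, against 4.4 and 4.56 FPKM in the controls. It rose by 0.85 ± 0.10 with the SP3 siRNA and by 0.40 ± 0.10 with both (adjusted p = 3.58e-06 and 0.003), and the SP1 siRNA difference of 0.23 ± 0.10 missed the threshold (adjusted p = 0.0621).

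In the controls PFKFB4 exceeded PFKFB3 per length, 2.01- and 1.88-fold. After knockdown the order was reversed, with a PFKFB4 to PFKFB3 ratio of 0.68 with the SP1 siRNA, 0.233 with the SP3 siRNA and 0.499 with both. The summed level of the PFKFB genes was 63, 54.9 and 51.6 FPKM, against 85.6 and 85.1 FPKM in the controls. PFKFB3 made up 54.4%, 67.9% and 58.7% of it, against 31.5% and 32.9%.

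Across the 10 genes the order of levels was the same in both controls: SLC2A1, HK2, PFKP, SLC2A3, HK1, PFKFB4, PFKM, PFKFB3, PFKL and PFKFB2. In control 2 the neighbours SLC2A3 and HK1 did not differ beyond counting error, with intervals of 61.9 to 65.9 and 61.7 to 65.1 FPKM. SLC2A3 was last of the 10 with the SP1 siRNA and with both, where its intervals of 4.48 to 5.63 and 5.31 to 6.58 FPKM overlapped those of PFKFB2, at 5.08 to 5.77 and 5.87 to 6.63 FPKM. PFKFB4 was last with the SP3 siRNA, where its interval of 8.12 to 9.31 FPKM overlapped that of PFKFB2, at 8.48 to 9.34 FPKM.

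The last question was whether both siRNAs together gave the sum of the single ones. The interaction, the double knockdown difference minus that sum, passed the threshold for all 10 genes, 6 higher and 4 lower, against 18.5% and 21% of all tested genes (39.5% in all, limma). It was 1.89 ± 0.11 for PFKFB4, 0.93 ± 0.10 for HK1, 0.89 ± 0.12 for SLC2A3, 0.66 ± 0.09 for HK2, 0.40 ± 0.09 for PFKP and 0.36 ± 0.09 for SLC2A1. It was -0.96 ± 0.11 for PFKL, -0.68 ± 0.16 for PFKFB2, -0.60 ± 0.11 for PFKFB3 and -0.35 ± 0.11 for PFKM. For 8 of the 10 genes the double knockdown lay on the same side of the controls as the sum and nearer to them, as did 68.9% of all tested genes, and for PFKM and PFKP the sum and the measured difference had opposite signs. For HK1 the sum was -1.23 and the measured difference -0.30, and for PFKFB4 -3.65 and -1.75. With no filter on low values limma called the interaction for 0 of the 10 (adjusted p 0.112 to 0.143) and for 0 of 17125 genes. There all 10 had an unadjusted p under 0.05, as did 5376 of all genes. Without the trend on mean level limma called it for 7 of the 10, against 3882 of 11728 genes, with SLC2A1, PFKM and PFKP missing the threshold. The interaction and the single differences share the control libraries.

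**Figure D4:**
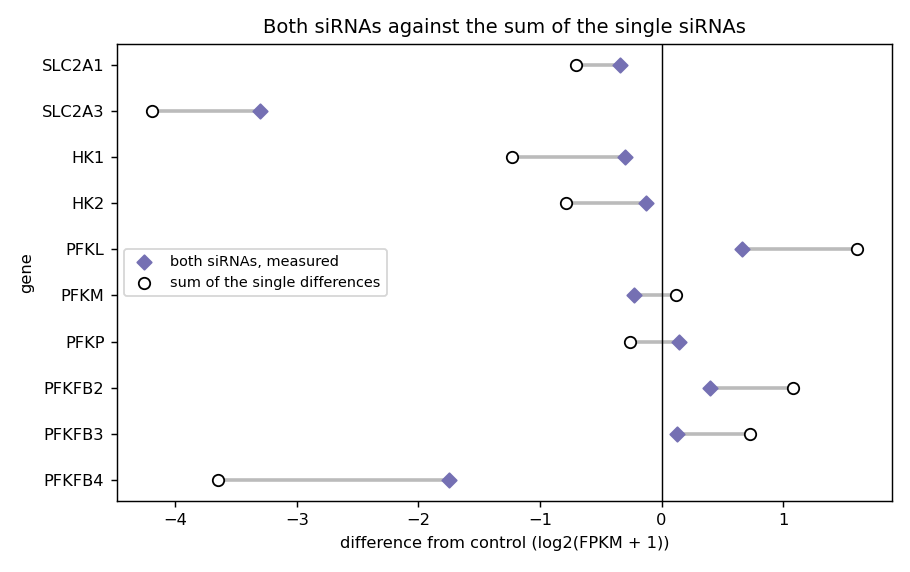
Measured difference of the double knockdown from the controls (diamonds) and the sum of the single siRNA differences (open circles), on the log2(FPKM + 1) scale. PFKFB4 was measured at -1.75 where the sum is -3.65, and PFKL at 0.66 where the sum is 1.61.

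The promoters of SLC2A1, PFKL and PFKFB4 are shown because SP1 and SP3 bind the GC box and these are the members with a single listed start site, from RefSeq (GRCh38.p14). Each window runs from 250 bases before the start to 50 after it, 5′ to 3′ on the gene's strand, and the capitals mark the GC box GGGCGG or its reverse complement CCGCCC, overlapping matches included.
PFKFB4, chr3:48556754-48557053, minus strand: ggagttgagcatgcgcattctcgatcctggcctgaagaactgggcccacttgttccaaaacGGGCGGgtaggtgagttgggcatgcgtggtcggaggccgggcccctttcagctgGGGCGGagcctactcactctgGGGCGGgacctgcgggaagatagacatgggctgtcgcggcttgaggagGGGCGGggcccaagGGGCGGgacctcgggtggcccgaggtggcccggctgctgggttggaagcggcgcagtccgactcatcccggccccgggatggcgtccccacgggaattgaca
PFKL, chr21:44299803-44300102, plus strand: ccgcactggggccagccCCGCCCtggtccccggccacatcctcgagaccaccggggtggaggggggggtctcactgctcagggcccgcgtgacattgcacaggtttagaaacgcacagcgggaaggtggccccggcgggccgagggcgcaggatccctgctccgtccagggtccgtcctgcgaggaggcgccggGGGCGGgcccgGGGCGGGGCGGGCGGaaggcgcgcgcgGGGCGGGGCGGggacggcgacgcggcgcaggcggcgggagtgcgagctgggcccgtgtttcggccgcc
SLC2A1, chr1:42958819-42959118, minus strand: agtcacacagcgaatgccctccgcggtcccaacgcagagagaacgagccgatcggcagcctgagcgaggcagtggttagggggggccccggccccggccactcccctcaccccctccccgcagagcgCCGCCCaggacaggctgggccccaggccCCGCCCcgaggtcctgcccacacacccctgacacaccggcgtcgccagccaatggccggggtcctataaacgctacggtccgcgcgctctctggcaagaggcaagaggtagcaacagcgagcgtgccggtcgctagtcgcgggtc

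PFKL holds 7 matches, PFKFB4 holds 5 and SLC2A1 holds 2. Of 35116 windows of all genes 45% hold at least 1 match, 26.7% at least 2 and 5.14% at least 5. PFKL and PFKFB4 are thus both rich in matches, and with the SP1 siRNA PFKL rose to 44.9 FPKM and PFKFB4 fell to 23.3 FPKM. The windows of PFKL, PFKFB4 and SLC2A1 are 78.3%, 68% and 71% G or C, against a median of 58.7% over all windows. The part of base make-up in the match counts was not tested. A match is a string of letters and not a measured binding site. Windows were listed for 8 of the 10 genes, all but SLC2A3 and PFKFB2. HK2 has 2 windows with 4 and 2 matches, PFKFB3 has 2 with 6 and 2, PFKP has 4 with 0 to 5, PFKM has 7 with 0 to 2 and HK1 has 7 with 0 to 2, and which start these cells use was not measured. The core of the hypoxia response element, ACGTG or GCGTG on either strand, has 1 match in each of the 3 promoters shown and in 48.4% of all windows.

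The remaining steps of glycolysis were measured beside the 10 genes. They are glucose phosphate isomerase (GPI), which acts between hexokinase and phosphofructokinase, and the later steps from aldolase to lactate export. Of 19 listed genes 17 were tested, and limma called 5 higher and 7 lower with the SP1 siRNA, 1 higher and 11 lower with the SP3 siRNA, and 3 higher and 9 lower in the double knockdown. All tested genes were called higher at 36.5%, 29.6% and 31.9% and lower at 28.8%, 32.1% and 31.1%. The median of the list was -0.13, -0.49 and -0.14, against 0.06, -0.02 and 0.01 over all genes. GAPDH, which makes the pathway's NADH, stood at 5810, 4123 and 4906 FPKM, against 9759 and 9722 FPKM in the controls. PGAM1, phosphoglycerate mutase, stood at 166, 82.8 and 129 FPKM after the SP1, SP3 and double knockdown, against 217 and 208 FPKM in the controls, and fell by 1.35 on the log2 scale with the SP3 siRNA (SE 0.06). ALDOC, an aldolase, stood at 285, 187 and 233 FPKM, against 427 and 423 FPKM. PGK1, phosphoglycerate kinase, stood at 467, 336 and 487 FPKM, against 725 and 735 FPKM. The enolase ENO3 was at 6.61 FPKM with the SP1 siRNA, 1.73 with the SP3 siRNA and 3.69 with both, against 1.89 and 1.82 FPKM, a rise of 1.41 ± 0.12 with the SP1 siRNA (adjusted p = 6.57e-08).

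**Figure D5:**
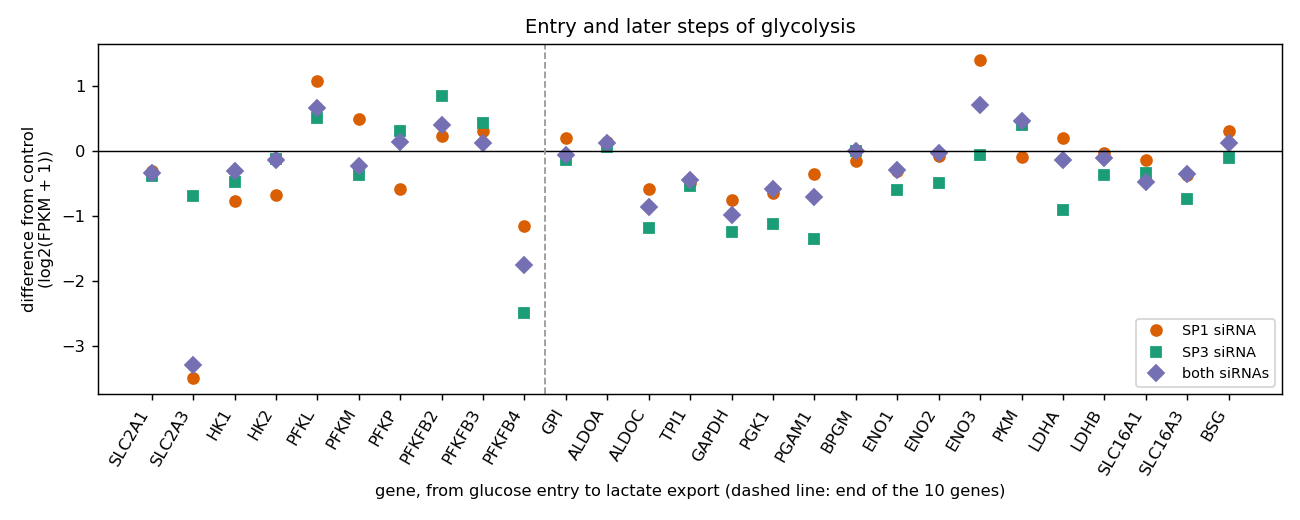
Difference from the control mean on the log2(FPKM + 1) scale for the 10 genes (left of the dashed line) and for the 17 tested genes of the remaining steps. GPI is placed with these, though it acts before phosphofructokinase. PGAM1 is at -1.35 and GAPDH at -1.24 with the SP3 siRNA, while ENO3 is at 1.41 with the SP1 siRNA.

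Other members of these families and their antagonists were sparse, and 10 of 21 were tested. Of these limma called 2 higher and 3 lower with the SP1 siRNA, 3 higher and 6 lower with the SP3 siRNA, and 3 higher and 5 lower in the double knockdown, where 65.4%, 61.6% and 63% of all tested genes were called. The medians were -0.16, -0.49 and -0.26, against 0.06, -0.02 and 0.01 over all genes. TIGAR, a phosphatase that removes the activator made by the PFKFB enzymes, stood at 3.59, 1.93 and 2.88 FPKM, against 1.29 and 1.52 FPKM in the controls, and rose by 0.93 ± 0.13 with the SP1 siRNA (adjusted p = 1.15e-05). SLC2A11, another carrier of the family, stood at 5.15, 3.48 and 4.41 FPKM, against 2.28 and 2.14 FPKM. ADPGK, a glucokinase that uses ADP, stood at 6.75, 4.34 and 4.96 FPKM, against 9.39 and 9.08 FPKM, and SLC2A6 at 3.68, 1.6 and 2.14 FPKM, against 5.16 and 4.88 FPKM. The muscle and fat carrier SLC2A4 stood at 1.14, 0.338 and 0.389 FPKM, against 1.36 and 1.42 FPKM, and SLC2A12 at 2.12, 1.17 and 1.33 FPKM, against 2.5 and 2.44 FPKM.

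Of 18 listed regulators of the pathway 17 were tested, with 2 higher and 7 lower with the SP1 siRNA, 5 higher and 9 lower with the SP3 siRNA, and 2 higher and 10 lower with both by limma. Of all tested genes 36.5%, 29.6% and 31.9% were called higher and 28.8%, 32.1% and 31.1% lower. The medians were -0.13, -0.34 and -0.29, against 0.06, -0.02 and 0.01 over all genes. HIF1A, the oxygen-regulated subunit of HIF1, stood at 23.8, 13.1 and 16 FPKM, against 31.1 and 30.9 FPKM in the controls, and fell by 1.18 on the log2 scale with the SP3 siRNA (SE 0.07, adjusted p = 3.97e-09). Its partner ARNT stood at 8.56 FPKM with the SP1 siRNA, 20.6 with the SP3 siRNA and 13.6 with both, against 15.2 and 15.4 FPKM. MYC, a growth factor-driven activator of glycolytic genes, stood at 136 FPKM with the SP1 siRNA, 44.1 with the SP3 siRNA and 47.8 with both, against 91.9 and 85.8 FPKM. TXNIP, which promotes removal of glucose carriers from the cell surface, stood at 2.35, 0.645 and 0.683 FPKM, against 3.78 and 3.42 FPKM. The kinase AKT1 stood at 51.7, 42 and 42.1 FPKM, against 26.4 and 26.9 FPKM. EPAS1, a relative of HIF1A, stood at 25.4, 21.5 and 18.9 FPKM, against 33.4 and 34.4 FPKM. The kinase PDK3, which slows entry of pyruvate into mitochondrial oxidation, stood at 5.67, 2.44 and 3.81 FPKM, against 6.59 and 6.03 FPKM.

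Of 16 hypoxia response genes outside glycolysis, limma called 4 higher and 9 lower with the SP1 siRNA, 2 higher and 13 lower with the SP3 siRNA, and 2 higher and 11 lower in the double knockdown. The shares over all tested genes were 36.5%, 29.6% and 31.9% higher and 28.8%, 32.1% and 31.1% lower. The medians were -0.26, -0.83 and -0.30, against 0.06, -0.02 and 0.01 over all genes. PLOD2, a collagen lysyl hydroxylase, stood at 27, 10.8 and 16.4 FPKM, against 58.7 and 61.3 FPKM in the controls. CA9, a carbonic anhydrase often used as a marker of hypoxia, stood at 13.6 FPKM with the SP1 siRNA, 1.21 with the SP3 siRNA and 3.5 with both, against 4.55 and 3.96 FPKM, a rise of 1.47 ± 0.11 with the SP1 siRNA (adjusted p = 3.15e-08). ANKRD37 stood at 116, 146 and 147 FPKM, against 288 and 281 FPKM, and the prolyl hydroxylase subunit P4HA2 at 13.6, 17.9 and 15 FPKM, against 35 and 35.7 FPKM. The mitophagy receptor BNIP3 stood at 114, 46.6 and 80.6 FPKM, against 150 and 146 FPKM, and the secreted protein ANGPTL4 at 372, 142 and 139 FPKM, against 354 and 370 FPKM.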

How the data were processed

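RNA was sequenced in 5 libraries. For every library the authors deposited FPKM values by gene symbol (fragments per kilobase, relative to all fragments counted in that library). The submitters' processing notes name HTSeq 0.9.1, Cufflinks 2.2.1, HISAT2 2.0.5 and Trimmomatic 0.36 without their roles. Build, annotation and strand handling: not given in the sources used here. FPKM is no read count, so limma 3.58.1 in R 4.3.3, with the prior variance following mean level, was run on log2(FPKM + 1) over the 11728 genes that reached 1 FPKM in any library. Each group had its own mean, leaving 1 residual degree of freedom beside 13.98 from the prior. Calls needed a Benjamini-Hochberg adjusted p under 0.05. Differences on this scale understate the change of low genes.

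Reads behind each value were worked out from its steps: depth from genes with 1 transcript in GENCODE 29 (148 used), then, per gene, the shortest length at which all 5 values came to whole reads within 0.02 reads. This held for 12 of 12 genes (the members, SP1 and SP3), and for 1 of 120 copies jittered by an SD of 1%. Reads are lower limits, and intervals (95%, exact Poisson) cover counting error only. Genes named are the 10 members, SP1, SP3, and up to 4 members of each pathway list by smallest p in each comparison with the controls, with markers of cell types, and 1 gene that this rule names is not reported here. The members and lists were chosen with earlier results of these data known. Alternatives were another pseudocount, filter, scaling, prior and model, and leaving out each control.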

Additional observations from a re-analysis of the deposited data

Results flagged for a closer look

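The difference after both siRNAs departed from the sum of the single differences, by the interaction term of the limma fit, for each of the 10 genes. In that fit the change after 1 siRNA thus differed with and without the other. With no filter on low values limma called the interaction for 0 of the 10 and for 0 of 17125 genes. Without the trend on mean level it was called for 7 of the 10, against 3882 of 11728 genes. The interaction on the log2 scale was 1.89 for PFKFB4, 0.93 for HK1, 0.89 for SLC2A3, 0.66 for HK2, 0.40 for PFKP, 0.36 for SLC2A1, -0.35 for PFKM, -0.60 for PFKFB3, -0.68 for PFKFB2 and -0.96 for PFKL. The limma adjusted p was 2.99e-08 for PFKFB4, the lowest, and 0.0164 for PFKM, the highest. Of all tested genes 39.5% passed the same test, and each knockdown rests on 1 library.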

How the results depend on the processing

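Of 70 differences of the 10 genes, over 7 comparisons, 69 kept their side of the threshold with a pseudocount of 0.1, 69 with median-ratio scaling, 68 with a mean of at least 5 FPKM, 64 in limma without trend and 36 with no filter on low values. A change of sign was counted only where either fit called the difference. With median-ratio scaling the uncalled SLC2A1 difference, double knockdown minus SP1 siRNA, went from -0.02 to 0.01. Leaving out either control changed no direction among 40 values, for which no test is then left. The additive model was the most severe setting, and 21 of 60 kept their side of the threshold. Of the differences that limma called above, it reversed the double knockdown minus SP1 siRNA difference of HK1 (-0.07) and PFKL (0.11) and the double knockdown minus SP3 siRNA difference of PFKFB3 (0.05) and PFKFB4 (-0.35). Uncalled differences also changed sign there: HK2 with the SP3 siRNA (0.16) and PFKFB2 with the SP1 siRNA (-0.06). So did SLC2A3 (-0.31) and PFKFB3 (0.17) in the double knockdown minus SP1 siRNA, and SLC2A1 (-0.16) and HK1 (-0.37) in the double knockdown minus SP3 siRNA. In this model those steps equal the SP3 and the SP1 term. In the additive model 900 (SP1 siRNA), 1805 (SP3 siRNA) and 1973 genes (double knockdown) were called against the controls, 1805 and 900 for the double knockdown against the SP1 and SP3 siRNA libraries, and 1278 for SP3 against SP1 siRNA, of which members numbered 1, 0, 1, 0, 1 and 2 (unadjusted p under 0.05 for 4 members where limma called 0). With no filter, of 17125 genes in the fit, the same comparisons gave 4180, 2106, 3157, 0, 0 and 2636 genes and the interaction 0. The unadjusted p was under 0.05 for 6063, 4443 and 5376 genes where limma called 0. Members called with no filter numbered 4 for the SP3 siRNA, 4 for the double knockdown, 5 for SP3 against SP1 siRNA, and 0 for the double knockdown against either single one and for the interaction (6, 7 and 10 at an unadjusted p under 0.05). A mean of at least 5 FPKM gave 5109 of 7127 genes for the SP1 siRNA, against 7666 of 11728 in the main fit. At 1.5-fold in place of 2-fold, 2058, 1887 and 1931 of 7127 genes lay past the fold in the SP1, SP3 and double knockdown libraries. Of the 10 members 5, 3 and 3 did. With a mean of at least 1 FPKM 1391, 1275 and 1344 genes lay past 2-fold. Leaving out control 1 or control 2 gave 1 and 2 members past 2-fold with the SP3 siRNA, against 762 and 748 of 7127 genes. The added member was PFKFB2 without control 2. Unless said, the cause was not tested. No paired analysis was possible because the knockdown groups have 1 library each and share fewer than 2 replicate numbers with the controls. Each of the 10 genes had at least 304 reads in every library, and each knockdown has 1 library.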

Other observations

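Genes with a like pattern were sought among 7117 other genes whose mean reached 5 FPKM, by the distance between their 3 differences from the controls and those of each of the 10 genes on the log2 scale. PFKFB4 had PLOD2 nearest, at a distance of 0.14, with differences of -1.12, -2.37 and -1.81 after SP1, SP3 and double knockdown, and the carbonic anhydrase CA2 next at 0.47. SLC2A3 had no close neighbour: AHNAK and CCL20 came nearest, each at a distance of 1.51, and AHNAK differed by -2.78, -0.72 and -1.97. PFKL had FLOT1 and RFNG at 0.06 and 0.07, PFKM had LRP6 and CERS4 at 0.04 and 0.05, and PFKP had TSNAX and NDUFA7 at 0.03 and 0.05. SLC2A1 had TDP2 and GLA at 0.02 and 0.03. HK1 had BUB3 and FIGNL1 at 0.11 and 0.13, and HK2 had IARS2 and GLYR1, both at 0.08. PFKFB2 had DXO and CCDC186 at 0.07 and 0.09, and PFKFB3 had CSNK2A2 and PRPF4B at 0.04 and 0.05. The patterns rest on 5 libraries and share the control libraries.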
